A study of Mus musculus with 4 samples.

Results

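The 49 series non-coding RNAs are mouse transcripts named after RIKEN full-length cDNA clones, with name prefixes given to clones from testis libraries. They were taken from the deposited table by a name that shares its first 4 digits with 4921525O09Rik, 4930444F02Rik, 4931415C17Rik, 4932441J04Rik or 4933440M02Rik, by the ending Rik and by an annotated type, with no measured value used. The rule found 338 of the 31600 features of the table, of which 169 were typed as lincRNAs (a type meant for transcripts lying between protein-coding genes), 115 as antisense RNAs (transcripts overlapping a gene on the opposite strand) and 54 as processed transcripts (non-coding transcripts of no closer class). By position some lincRNAs, such as 4930412M03Rik and 4930562F07Rik, still overlapped a protein-coding gene. The symbol 4930432B10Rik stands for 2 of the 338 features with different identifiers, and both were kept.

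Long non-coding RNAs are transcribed by RNA polymerase II, are often spliced and polyadenylated, and carry no long conserved reading frame. Some start from the promoter of a protein-coding gene and run the other way, some lie inside a gene on the other strand, and some stand alone. The testis transcribes more of them than most other organs, with much of that transcription in spermatocytes at the pachytene stage of meiosis and in early spermatids. MYBL1, also known as A-MYB, is a transcription factor of pachytene spermatocytes that drives meiotic genes, non-coding RNAs and the precursors of pachytene piRNAs.

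The samples are labelled as spermatogonial stem cells, from which sperm production is renewed. Total RNA was sequenced from 2 control libraries, whose genotype entry reads WT, and 2 differentiation libraries, whose genotype entry reads Differentiation. The 4 libraries share the cell type entry and no other allele or agent is given, nor is the way or the time in which the cells were differentiated. No label says that replicate libraries came from different cultures or mice, so the p-values measure only the spread between these libraries, which may be technical. The values are FPKM, fragments per kilobase of exon scaled to the depth of the library, and their steps corresponded to depths of 17772000 to 20650100 fragments per library.

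Control libraries held RNA of the labelled cell type's markers: the 16 genes of the undifferentiated spermatogonia list summed to 164 and 167 FPKM in control. In differentiation they summed to 56.7 and 56.6 FPKM. Of the 15 tested, 12 were lower and 1, Id4, was higher. Id4 was at 3.00 and 2.89 FPKM in control and 12.3 and 12.6 FPKM in differentiation. Nanos2, Pax7 and Eomes were each under 1 FPKM in both control libraries. These 4 genes were named after their values were seen. None of the 16 was at 0 in every library, but this held for every marker list and so does not tell cell types apart. In control the meiotic prophase list summed to 473 and 472 FPKM and the Sertoli cell list to 293 and 301 FPKM. The differentiation libraries held more RNA of later germ cells. Of 26 meiotic prophase genes 24 were higher and 1 lower (median log2 fold change 1.30). Of 18 tested genes of the spermatid list 12 were higher and 0 lower (median 1.34). The stage at which the genes of this list were transcribed was not tested. The spermatid list summed to 528 and 538 FPKM in differentiation, of which Ldhc alone was 353 and 360 FPKM. Prm1 was at 0.960 and 0.942 FPKM there and Tnp2 at 1.54 and 1.52 FPKM. Prm2, Odf1, Akap4, Catsper1, Spem1 and H1fnt were too low to be tested. Acrv1, Gapdhs, Izumo1, Tssk1, Tssk2 and Hspa1l were called neither higher nor lower. These genes of the spermatid list were named after their values were seen. Mybl1 itself was at 4.97 and 4.51 FPKM in control and 28.6 and 29.5 FPKM in differentiation. Fibroblast and peritubular cell markers summed to 409 and 410 FPKM in control and to 145 and 136 FPKM in differentiation, with 13 of 14 lower. Macrophage and leukocyte markers summed to 67.4 and 65.2 FPKM in control and to 20.5 and 19.7 FPKM in differentiation, with 8 of 10 tested lower and 1 higher. Of the Sertoli cell list 4 were higher and 5 lower of 12 tested, of the Leydig cell list 1 and 3 of 5, and of the endothelium list 0 and 2 of 5. The part of these cell types in the changes described below was not tested. In RNA from bulk cells, fewer cells of a type and less RNA per cell cannot be told apart.

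As a set the 49 series non-coding RNAs were higher in differentiation, and many of them were close to absent in control. A mean of at least 0.5 FPKM over the 4 libraries was needed for testing, and 185 of the 338 reached it. In limma's test on log2(FPKM + 1), with Benjamini-Hochberg adjustment over all 23138 tested features and a threshold of 0.05, 94 rose and 22 fell, while 69 did not pass. Of all tested features 29.6% were called higher and 27.0% lower. The median log2 fold change of the tested members was 0.37, against 0.01 over all tested features, and 52 members rose by at least 1 on that scale, which 9.7% of all tested features did. The 1 member that fell by at least 1, as 4.4% of all tested features did, was 4930518C09Rik. The groups did not overlap in 114 members that were higher and in 36 that were lower in differentiation, against 40.9% and 39.1% of all tested features. Leaving out control replicate 1, control replicate 2, differentiation replicate 1 or differentiation replicate 2 left 8, 13, 7 and 13 members called lower, and 80, 76, 80 and 76 called higher. Against a minimum fold change of 1.5 (limma treat), 51 were called higher and 0 lower, and of all tested features 9.91% and 5.08%; at an unadjusted p under 0.05 these were 61 and 2 members.

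Some members passed the filter through 1 group only. Of the 185 tested members, 53 had a mean of at least 0.5 FPKM in differentiation only, and 43 of them were called higher. Another 2 reached it in control only. Among the 130 members with both group means at 0.5 FPKM or more, 51 rose, 21 fell and 58 did not pass, with a median log2 fold change of 0.17. Of all features with both group means at that level, 27.3% were called higher and 27.5% lower.

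**Figure D1:**
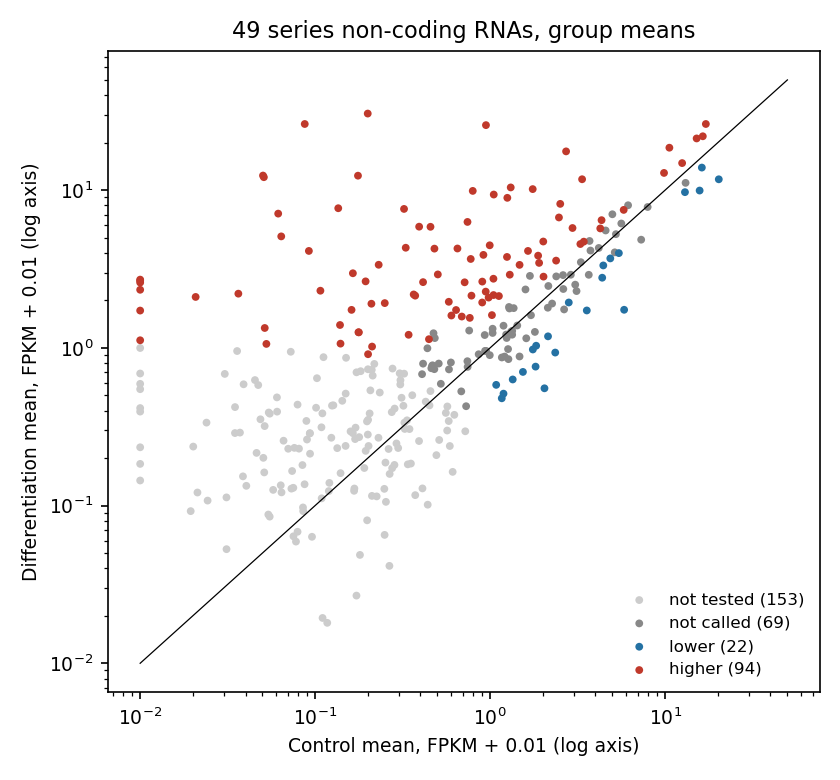
Mean FPKM in control (horizontal, log axis, 0.01 added) and in differentiation (vertical, log axis, 0.01 added) for the 338 members, 1 point each, coloured by limma's call, with the line of equal values. The 94 members called higher reach from the upper left corner, where control is at or near 0, to the line of equal values, while the 22 called lower lie close under that line.

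Of the 12 largest increases, 6 were in transcripts with no protein-coding gene within 50 kb. Among the 12, only 4930509G22Rik, 4930426I24Rik and 4933406C10Rik had a control mean of at least 0.5 FPKM. The others passed the filter through differentiation only, so they had to be higher there, and their adjusted p-values are descriptions. 4930444F02Rik, a lincRNA of 3 exons at chr10:18796806-18831930 on the minus strand of GRCm38 (GENCODE M21), was at 0.105 and 0.275 FPKM in control and at 29.8 and 31.4 FPKM in differentiation. Its 14 and 39 fragments in control became 3633 and 4396, a ratio of 159 after scaling to depth (95% exact interval 122 to 213). It was the most abundant of all 338 members in the differentiation libraries. The log2 fold change was 4.73 (SE 0.10; limma adjusted p = 9.76e-05). This scale adds 1 to every FPKM and so understates the change of a transcript that is low in control; on the recovered fragments limma-voom gave 7.44 (SE 0.30). Intervals of fragment ratios cover counting error only.

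4933440M02Rik, a lincRNA of 6 exons at chr7:125284025-125349788 on the minus strand, rose from 0.0217 and 0.133 to 26.2 and 26.3 FPKM (log2 fold change 4.66, SE 0.08; limma adjusted p = 8.85e-05). 4921525O09Rik, a processed transcript at chr13:52096741-52124158, rose from 0.0549 and 0.0258 to 11.8 and 12.9 FPKM (3.68, SE 0.09; limma adjusted p = 1.16e-04). 4930442J19Rik, a lincRNA at chr2:151301974-151316247, was at 0 and 0.0818 FPKM in control, which stands for 0 and 3 fragments, and at 13.2 and 10.9 FPKM in differentiation. In each of these RNAs both differentiation libraries lay far above both control libraries. The ratio of fragments was 333 for 4933440M02Rik (95% exact interval 202 to 596), 311 for 4921525O09Rik (142 to 848) and 285 for 4930442J19Rik (97.1 to 1383). The control side of these ratios rests on 15, 6 and 3 fragments, which is why the intervals are wide.

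The single-exon lincRNA 4933435G04Rik (chr7:73124451-73126558) rose from 0.171 and 0.161 to 11.6 and 13.0 FPKM, a log2 fold change of 3.51. 4930598N05Rik (chr10:10184800-10258699) rose from 0 and 0.103 to 7.01 and 7.16 FPKM (2.95), and 4930568E12Rik (chr9:13091256-13105858) from 0.129 and 0.122 to 8.42 and 6.92 FPKM (2.94). No protein-coding gene lay within 50 kb of any of these 3, nor of 4933440M02Rik, 4921525O09Rik and 4930442J19Rik. In all, 55 members had no protein-coding gene within 50 kb. Of these, 16 were tested, and 15 rose by more than 1 on the log2 scale. All 15 had passed the filter through differentiation only, so they had to differ. The other one, 4930477N07Rik, was the single tested member of this kind that had a mean of at least 0.5 FPKM in both groups; it did not pass, at a log2 fold change of -0.15, and was named after its value was seen. Among the 39 untested ones the groups did not overlap in 21 that were higher and 5 that were lower, where 32.2% and 27.9% of all untested features did so.

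4930463O16Rik, a lincRNA at chr10:84488293-84497435, rose from 0.369 and 0.255 to 7.14 and 8.04 FPKM (2.71, SE 0.11; limma adjusted p = 2.44e-04). Its nearest coding gene, Ckap4, a membrane protein of the rough endoplasmic reticulum, went the other way, from 35.9 and 38.2 to 18.2 and 18.5 FPKM (log2 fold change -0.98). The coding neighbour of 4930444F02Rik, Gm4922, rose from 0.174 and 0.0205 to 2.98 and 2.69 FPKM. Their starts are 45137 bases apart.

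**Figure D2:**
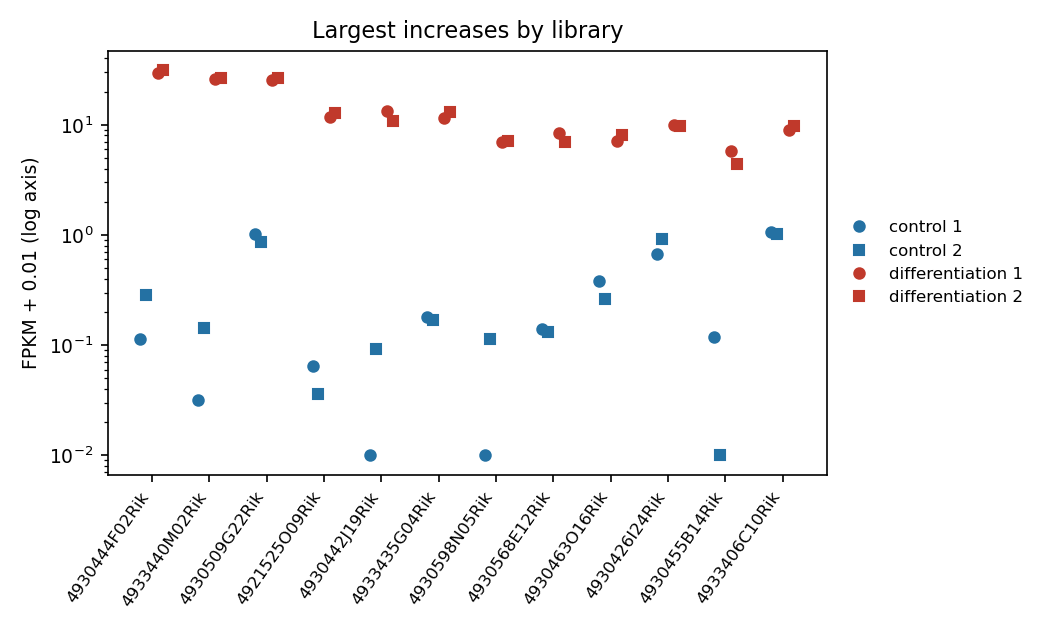
FPKM in each library (log axis, 0.01 added) for the 12 members with the largest increases among those reaching a group mean of 1 FPKM; blue is control, red is differentiation, circles are replicate 1 and squares replicate 2. Every differentiation value lies above every control value of the same RNA, and the control values run from 0 to 1.06 FPKM.

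No fragment of 15 members was seen in either control library, and each of these had fragments in differentiation. Of them 6 were tested: 4933411E06Rik, 4930568A13Rik, 4933400L20Rik, 4930458A03Rik, 4930567K20Rik and 4930469B13Rik, named after their values were seen. They could pass the filter through differentiation only and so could only be higher there, and their values are a description. 4933411E06Rik reached 2.37 and 2.80 FPKM on 148 fragments, at least 51.9-fold higher than the floor of 3 fragments over both control libraries. 4930469B13Rik reached 2.90 and 2.42 FPKM on 43 fragments, at least 15.1-fold higher. The other 4 had bounds between these values. No member was at 0 in both differentiation libraries.

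A further group of rising RNAs starts beside a protein-coding gene and is transcribed away from it. 4930509G22Rik, a lincRNA of 4 exons at chr16:11178176-11192292, rose from 1.01 and 0.859 to 25.3 and 26.3 FPKM (log2 fold change 3.79, SE 0.07; limma adjusted p = 8.85e-05), with a fragment ratio of 27.7 (95% exact interval 22.5 to 34.4). It starts 1783 bases from Zc3h7a, a zinc finger protein gene on the other strand, which rose from 7.17 and 8.36 to 21.5 and 20.3 FPKM. 4930426I24Rik, a single-exon lincRNA at chr12:76402751-76403982, rose from 0.667 and 0.904 to 9.96 and 9.81 FPKM (2.61, SE 0.10; limma adjusted p = 2.21e-04). Its start lies 194 bases from that of Hspa2, a chaperone gene of meiotic male germ cells, which rose from 9.37 and 9.58 to 157 and 160 FPKM (3.93). Both transcripts of this pair rose, the coding one by more.

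4933406C10Rik (chr12:32919384-32953789) rose from 1.06 and 1.02 to 8.89 and 9.84 FPKM, a log2 fold change of 2.34, and its partner Sypl, a synaptophysin-like membrane protein, from 13.0 and 11.9 to 23.3 and 21.2 FPKM (0.79). 4930455B14Rik (chr14:8666386-8673378) rose from 0.108 and 0 to 5.76 and 4.4 FPKM (2.52, SE 0.15; limma adjusted p = 6.42e-04). Its coding partner 4930452B06Rik, 146 bases away, did not pass, at 1.97 and 2.14 FPKM in control and 2.13 and 1.90 FPKM in differentiation. In these pairs the non-coding RNA changed more than the coding gene.

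Over all 338 members, 86 had the start of a protein-coding gene on the other strand within 1 kb of their own start, a window set after the other rules. Of the 68 tested, 39 rose, 6 fell and 23 did not pass. In 65 of these pairs the coding gene was tested too. Beside the 38 rising RNAs with a tested partner, 29 partners rose, 4 fell and 5 did not pass. Beside the 21 RNAs that did not pass, 9 partners rose and 5 fell, and over all protein-coding features 32.5% were called higher and 34.0% lower. Across the 65 pairs the log2 fold changes of both had a Pearson r of 0.49 and a Spearman rho of 0.46, given as a description since the genes come from the same 4 libraries.

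The partners included several germ cell genes, named here after their values were seen. 4930518J20Rik rose from 0.626 and 0.655 to 4.23 and 4.29 FPKM, and Tdrd5, a tudor protein of the germ granules whose start is 175 bases away, from 6.07 and 6.51 to 27.9 and 29.6 FPKM. 4931419H13Rik rose from 0.0528 and 0 to 3.18 and 1.21 FPKM beside Ccna1, the cyclin of meiotic cells, which rose from 0.280 and 0.501 to 1.66 and 1.47 FPKM. Both 4931419H13Rik and Ccna1 passed the filter through differentiation only, so they had to be higher there and their values are a description. 4933431E20Rik rose from 2.49 and 2.44 to 6.87 and 6.53 FPKM beside Gstm5, a glutathione transferase, which rose from 18.1 and 16.7 to 88.3 and 88.8 FPKM. These 3 RNAs share 11.9%, 19.0% and 16.7% of their exonic bases with other genes. The 2 differentiation libraries of 4931419H13Rik differed from each other more than those of the other RNAs here. Among pairs with no shared exonic base, 4933433G15Rik rose from 1.64 and 1.84 to 10.2 and 10.1 FPKM beside the kinase gene Mapk6, which rose from 30.9 and 31.5 to 48.4 FPKM in both libraries, and 4930558J18Rik rose from 1.35 and 1.25 to 10.3 and 10.5 FPKM beside 1700066M21Rik. Pairs also went apart: 4931415C17Rik rose from 0.295 and 0.344 to 3.99 and 4.61 FPKM, while Tubgcp3, a component of the gamma-tubulin complex whose start is 62 bases away, fell from 10.5 and 10.6 to 9.27 and 9.54 FPKM. The filter was passed by 4931415C17Rik through differentiation only, so its rise is a description. 4930480K23Rik rose by 0.63 on the log2 scale beside Chmp7, a membrane remodelling protein, which fell by 0.47.

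RefSeq gives a window from 250 bases before to 50 bases after the start, on GRCm38.p6, for 203 of the 338 members. The following windows are shown because their genes rose together in differentiation: a trio of RNAs without a coding gene at their start, then 3 windows at pairs of a member and a coding gene. Each reads 5′ to 3′ on the strand of the named gene, whose start follows the first 250 bases. Capitals mark matches, on either strand, to CAGTTG (the core bound by MYB proteins), TGACG (part of the site bound by CREB and CREM proteins) and the X-box (bound by RFX proteins).
4930444F02Rik, chr10:18831881-18832180 (minus strand): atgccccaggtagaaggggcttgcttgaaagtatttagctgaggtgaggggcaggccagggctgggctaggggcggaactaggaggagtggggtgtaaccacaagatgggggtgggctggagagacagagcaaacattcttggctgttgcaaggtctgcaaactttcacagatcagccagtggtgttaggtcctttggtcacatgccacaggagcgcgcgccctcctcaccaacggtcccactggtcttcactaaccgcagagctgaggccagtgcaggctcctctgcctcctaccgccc
4930568E12Rik, chr9:13105806-13106105 (minus strand): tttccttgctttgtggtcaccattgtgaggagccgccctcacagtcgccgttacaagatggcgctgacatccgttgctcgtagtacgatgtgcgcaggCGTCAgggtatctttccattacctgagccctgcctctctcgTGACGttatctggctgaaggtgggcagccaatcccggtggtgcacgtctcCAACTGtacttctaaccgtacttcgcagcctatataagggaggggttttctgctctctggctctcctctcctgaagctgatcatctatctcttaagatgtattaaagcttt
4933404O12Rik, chr5:136918896-136919195 (plus strand): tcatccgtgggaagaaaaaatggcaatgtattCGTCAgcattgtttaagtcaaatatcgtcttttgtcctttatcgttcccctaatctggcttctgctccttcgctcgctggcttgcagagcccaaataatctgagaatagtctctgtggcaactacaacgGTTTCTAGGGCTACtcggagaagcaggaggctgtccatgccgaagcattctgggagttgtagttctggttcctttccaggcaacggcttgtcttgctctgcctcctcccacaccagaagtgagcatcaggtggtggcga
Hspa2, chr12:76404120-76404419 (plus strand): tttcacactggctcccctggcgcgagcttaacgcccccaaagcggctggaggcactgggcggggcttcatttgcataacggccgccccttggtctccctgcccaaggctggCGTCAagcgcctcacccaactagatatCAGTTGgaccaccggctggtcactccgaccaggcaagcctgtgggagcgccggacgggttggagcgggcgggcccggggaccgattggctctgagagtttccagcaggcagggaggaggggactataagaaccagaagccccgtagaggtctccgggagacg
Tdrd5, chr1:156303299-156303598 (minus strand): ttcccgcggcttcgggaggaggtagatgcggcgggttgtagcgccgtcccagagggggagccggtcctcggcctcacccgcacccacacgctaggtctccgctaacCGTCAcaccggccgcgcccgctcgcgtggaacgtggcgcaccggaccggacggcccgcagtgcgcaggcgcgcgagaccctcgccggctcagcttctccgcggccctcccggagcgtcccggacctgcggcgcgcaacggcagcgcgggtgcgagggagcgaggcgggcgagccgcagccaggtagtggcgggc
4930558J18Rik, chr1:57377495-57377794 (minus strand): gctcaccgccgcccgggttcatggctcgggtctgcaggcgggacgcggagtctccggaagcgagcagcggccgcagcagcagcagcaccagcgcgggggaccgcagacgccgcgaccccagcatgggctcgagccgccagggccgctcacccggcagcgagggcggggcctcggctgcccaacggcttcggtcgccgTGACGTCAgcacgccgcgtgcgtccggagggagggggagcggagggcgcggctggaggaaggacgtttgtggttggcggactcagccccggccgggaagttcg

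The window of 4930444F02Rik held none of the 3 motifs, while that of 4930568E12Rik held 1 CAGTTG match and 2 TGACG matches and that of 4933404O12Rik 1 TGACG and 1 X-box match. 4933404O12Rik, named after its values were seen, was at 2.65 and 2.76 FPKM in control and at 17.1 and 18.1 FPKM in differentiation. RefSeq and GENCODE place the starts of Hspa2 and Tdrd5 differently, and the distances between paired starts given above are those of GENCODE. The RefSeq start of Hspa2 lies 194 bases past the GENCODE one, inside the GENCODE gene. Its window begins 138 bases past the start of 4930426I24Rik, and its 1 CAGTTG and 1 TGACG match both lie past the GENCODE start of Hspa2. The RefSeq start of Tdrd5 lies 316 bases past the GENCODE one, which is before this window, and the start of 4930518J20Rik is base 110 of the window. The window of 4930558J18Rik holds the start of 1700066M21Rik at base 175 and the palindrome TGACGTCA, which contains TGACG on both strands.

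Over the windows, CAGTTG was found in 16 of 57 of members that rose (28.1%), in 2 of 12 that fell, in 6 of 37 that did not pass (16.2%) and in 20 of 97 that were not tested (20.6%), against 13.7% of all 32851 RefSeq windows. Each member counts with 1 window, while the full set can hold several windows of the same gene. TGACG was found in 35.1% of the windows of rising members, 25% of falling members and 18.9% of those that did not pass, against 20.8% of all. The looser MYB core AACNG, which occurs by itself in most stretches of this length, was in 87.7% of windows of rising members, 91.7% of falling members, 94.6% of those that did not pass and 80.3% of all. The X-box was in 5.26%, 8.33%, 2.70% and 2.17% in the same order, the full palindrome TGACGTCA in 3.51%, 0%, 2.70% and 1.79%, and TATAAA in 5.26%, 0%, 8.11% and 13.6%. With 12 windows of falling members, 1 window is 8.33%. Windows of rising members had a median of 15 CG dinucleotides, those of falling members 7.5, those that did not pass 4 and all windows 7. TGACG itself holds a CG, and the part of CG content in its shares was not tested. A match is a stretch of letters and not a measured binding site.

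Of the 22 members that fell, 19 overlapped a protein-coding gene on the other strand, as did 109 of all 185 tested members and 47 of the 94 that rose. Among the 22, 13 were antisense RNAs and 3 were lincRNAs, against 79 and 69 of the 185 tested. 4930518C09Rik, an antisense RNA at chr5:48003065-48005707, had the largest decrease, from 6.99 and 4.66 to 1.41 and 2.05 FPKM (log2 fold change -1.31, SE 0.22; limma adjusted p = 9.93e-03). It lies within Slit2, a secreted guidance protein gene, which fell from 4.76 and 4.74 to 1.38 and 1.35 FPKM. 4930556N13Rik (chr11:88851604-88881395) fell from 2.58 and 2.11 to 0.707 and 1.14 FPKM, and Akap1, the mitochondrial anchor of protein kinase A on the other strand, from 20.4 and 21.5 to 6.0 and 6.52 FPKM. Neither shares an exonic base with its coding gene. The call of 4930518C09Rik was lost without differentiation replicate 1 (limma adjusted p = 0.0691), and that of 4930556N13Rik without control replicate 1 or differentiation replicate 1.

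4930562F07Rik, a lincRNA at chr1:160074735-160077985, fell from 2.23 and 1.84 to 0.376 and 0.712 FPKM (-0.98, SE 0.16; limma adjusted p = 8.49e-03). Exons of other genes cover 67.0% of its exonic bases, so its reads cannot be fully told apart from theirs. It overlaps the coding gene 4930523C07Rik on the other strand, which fell from 0.837 and 0.727 to 0.397 and 0.328 FPKM. That gene passed the filter through control only. 4930533K18Rik (chr10:70868644-70934324) fell from 3.37 and 3.75 to 1.69 and 1.74 FPKM inside Bicc1, an RNA-binding protein gene, which fell from 6.65 and 7.58 to 3.46 and 3.21 FPKM. The 2 genes share 349 exonic bases. Exons of other genes cover 25.9% of the exonic bases of 4930533K18Rik, so this pair may share reads. 4921534H16Rik (chr9:98003420-98012175) fell from 1.77 and 1.85 to 0.954 and 0.547 FPKM inside Clstn2, a calsyntenin gene that fell by 0.82 on the log2 scale, and 4921511C10Rik (chr3:79212919-79253913) from 1.40 and 1.66 to 0.615 and 0.772 FPKM inside Rapgef2, a Rap exchange factor gene that fell by 0.93. The calls of both were lost when some single libraries were left out: 4921534H16Rik without control replicate 1 or 2 or differentiation replicate 2, and 4921511C10Rik without control replicate 2 or differentiation replicate 1.

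The 2 most abundant of the 8 largest decreases were 4930558J22Rik and 4933427D06Rik. 4930558J22Rik (chr13:23755822-23757620) lies in a histone gene cluster and fell from 20.1 and 20.4 to 10.6 and 12.8 FPKM (-0.75, SE 0.09; limma adjusted p = 4.18e-03). The core histone gene Hist1h4b, with which it shares 223 exonic bases, fell from 61.3 and 58.9 to 32.7 and 41.1 FPKM. Differentiation replicate 2 was the higher one for both of these genes. 4930557K07Rik, named after its values were seen, was also abundant. It was called lower with a smaller change, from 16.3 and 16.1 to 13.2 and 14.6 FPKM (-0.21, SE 0.06, limma adjusted p = 0.0403). Its 236 fragments in control and 193 in differentiation gave a ratio of 0.860 after scaling to depth. The exact interval of this ratio, at the level used above, was 0.707 to 1.04, so counting error alone does not exclude no change. 4933427D06Rik (chr6:88950683-89110031), a lincRNA, fell from 15.8 and 15.7 to 9.64 and 10.2 FPKM (-0.62, SE 0.04; limma adjusted p = 1.02e-03). The 1 member on the X chromosome, 4933407K13Rik, also fell, from 1.44 and 1.23 to 0.630 and 0.611 FPKM, and was named after its value was seen.

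**Figure D3:**
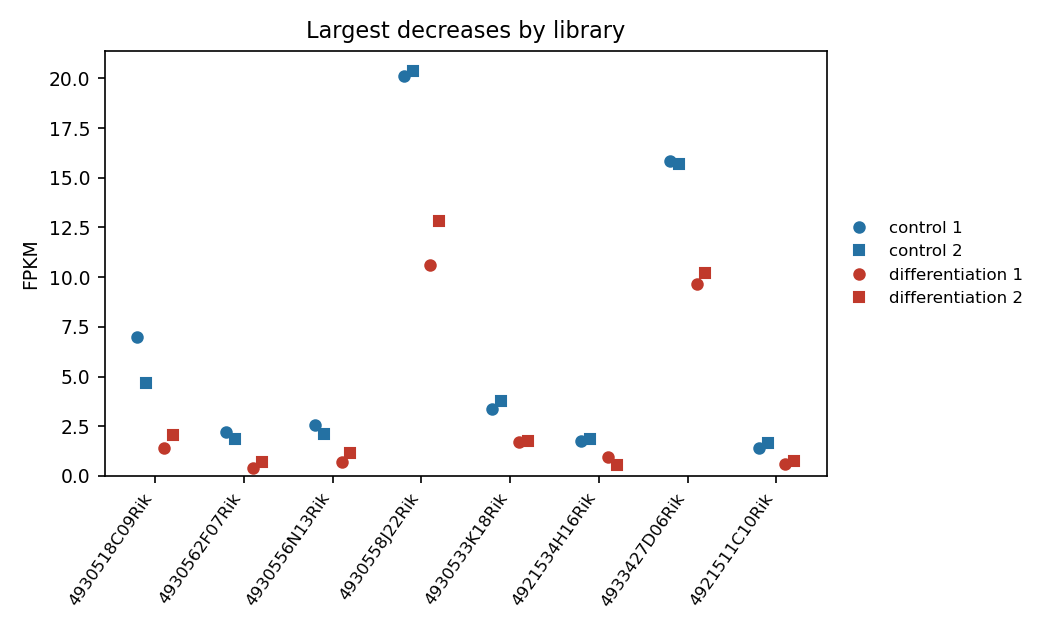
FPKM in each library (axis from 0) for the 8 members with the largest decreases on the log2 scale; blue is control, red is differentiation, circles are replicate 1 and squares replicate 2. Both differentiation values lie under both control values for each RNA, and 4930558J22Rik and 4933427D06Rik stand well above the others in level.

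The 5 members with the highest mean level were 4930444F02Rik and 4930558J22Rik, described above, and 3 antisense RNAs with smaller rises. 4930599N23Rik, an antisense RNA at chr6:39118473-39148312, was at 17.2 and 16.9 FPKM in control and 26.9 and 25.7 FPKM in differentiation (0.59, SE 0.04; limma adjusted p = 7.04e-04). It overlaps Kdm7a, a histone demethylase gene that rose from 14.2 and 14.1 to 21.5 and 20.3 FPKM. The start of Kdm7a is 88316 bases from that of this RNA. Parp12, whose start on the other strand is 124 bases away, did not pass, at 34.1 and 34.2 against 34.5 and 35.0 FPKM. 4930524O07Rik (chr9:106891547-106895182) rose from 17.2 and 15.7 to 22.2 and 21.7 FPKM beside Manf, a secreted factor of the endoplasmic reticulum, which rose from 21.1 and 19.6 to 30.5 and 32.0 FPKM. 4930455C13Rik (chr10:21319088-21342057) rose from 15.1 in both control libraries to 21.9 and 20.6 FPKM, and Hbs1l, a ribosome rescue factor, from 13.6 and 14.1 to 18.7 and 19.1 FPKM. These 3 share 32.6%, 52.9% and 26.1% of their exonic bases with other genes, and no source used here says if counting used strand.

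Of members that did not pass, 4930404A12Rik, 4930412M03Rik and 4930520M14Rik had the highest levels. 4930412M03Rik (chr11:60112219-60115230) was at 7.82 and 8.06 FPKM in control and 8.10 and 7.51 FPKM in differentiation, and the groups overlapped (-0.02, SE 0.06; limma adjusted p = 0.768). Rai1, a nuclear regulator gene on the other strand that it overlaps, fell from 12.3 and 13.1 to 7.29 and 7.19 FPKM. 4930404A12Rik was at 12.6 and 13.6 against 10.1 and 12.1 FPKM (limma adjusted p = 0.119), and 4930520M14Rik at 6.74 and 5.53 against 7.55 and 8.48 FPKM (limma adjusted p = 0.0605). The latter passed without control replicate 1 (limma adjusted p = 0.0385). The former passed after quantile normalization and with the replicate block (limma adjusted p = 0.0440 and 0.0454). Exons of other genes cover 91.2% of the exonic bases of 4930404A12Rik. Atp6v0a2, which it overlaps, did not pass. Dnah10, whose start on the other strand is 6 bases from its own, rose from 2.11 and 2.25 to 4.30 and 4.55 FPKM. For 4930412M03Rik the coding gene changed and the RNA inside it was not shown to.

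By position, 148 members overlapped a coding gene on the other strand, 44 started within 5 kb of one on the other strand without overlapping it, 88 had their nearest coding gene within 50 kb and 2 overlapped one on the same strand. In 152 tested pairs of a member and its coding neighbour, 71 were called in the same direction, and this count was 46 without control replicate 1, differentiation replicate 1 or differentiation replicate 2. Beside the 70 rising members with a tested neighbour, 54 neighbours rose and 8 fell. Beside the 22 falling members, 17 neighbours fell and 1 rose. Beside the 60 members that did not pass, 17 neighbours rose and 19 fell. Over the 101 overlapping pairs on opposite strands Pearson's r between the log2 fold changes was 0.69 and Spearman's rho 0.78. Over 27 pairs with starts within 5 kb these were 0.53 and 0.54, and over 23 pairs with the nearest gene within 50 kb 0.61 and 0.49. Members and neighbours share libraries, and overlapping pairs may share reads, so these are descriptions.

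Overlapping pairs without shared exons were looked at separately. In the 30 overlapping pairs on opposite strands with no exonic base in common, 8 members rose and 6 of their neighbours rose, and 8 members fell and 7 of their neighbours fell. Spearman's rho was 0.81 over these 30. Reads from unspliced RNA of the coding gene would still fall on such members if strand was not used, and that share was not tested. Among the 103 tested members that share no exonic base with any annotated gene, 53 rose and 11 fell, with a median log2 fold change of 0.53. Of all tested features 29.6% were called higher and 27.0% lower. The 103 include members that passed the filter through differentiation only and so had to be higher. A count without them was not made, so this median may rest in part on the filter.

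**Figure D4:**
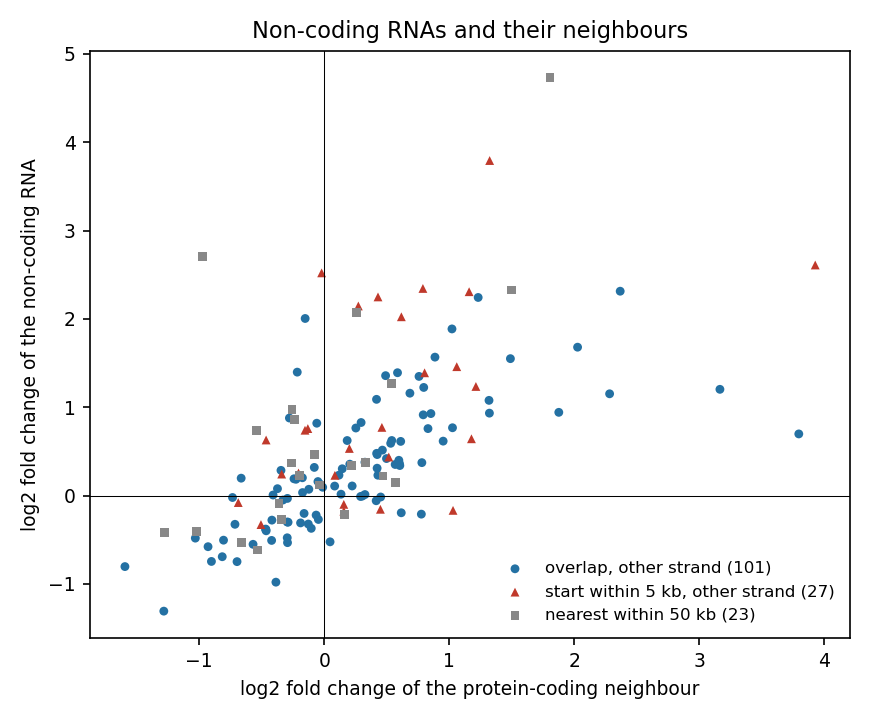
Log2 fold change of each tested member (vertical) against that of its tested protein-coding neighbour (horizontal), both on the log2(FPKM + 1) scale, with symbols for the position of the neighbour; the 1 tested pair overlapping on the same strand is not drawn. Overlapping pairs follow a rising band, and several members rose by 2 or more where the neighbour changed by less than 1.

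By type, lincRNAs rose most often among the tested members: 41 of 69 tested rose and 3 fell, with a median log2 fold change of 0.72. Another 100 lincRNAs were not tested, as were 36 antisense RNAs and 17 processed transcripts. The counts by type include members that passed the filter through differentiation only, of which 43 of 53 were called higher. Counts by type without them were not made, so the order of the types may rest in part on the filter. Of 79 antisense RNAs 34 rose and 13 fell (median 0.23), and of 37 processed transcripts 19 rose and 6 fell (median 0.37). Other lincRNAs of the table, outside the 49 and 1700 series, were called higher in 33.1% and lower in 16.8% of 943 tested, with a median of 0.14. Other antisense RNAs were called higher in 26.2% of 1548, and other processed transcripts in 27.5% of 324. The differences between types and between series were not tested.

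The closest classes by name also had more rises than falls. Of 127 tested non-coding RNAs of the 1700 series, named after another set of testis clones, 64 rose and 8 fell, with a median of 0.44. Of 76 tested protein-coding genes of the 49 series 46 rose and 6 fell, with a median of 0.67. This is 60.5% called higher, against 50.8% of the tested members, whose median was 0.37. Among the 2815 other tested features of the same non-coding types 806 rose and 568 fell, with a median of 0.05, and among the 14321 other protein-coding features the median was -0.03. The filter bears on these counts too. Counts limited to features with both group means at 0.5 FPKM or more were not made for these classes.

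**Figure D5:**
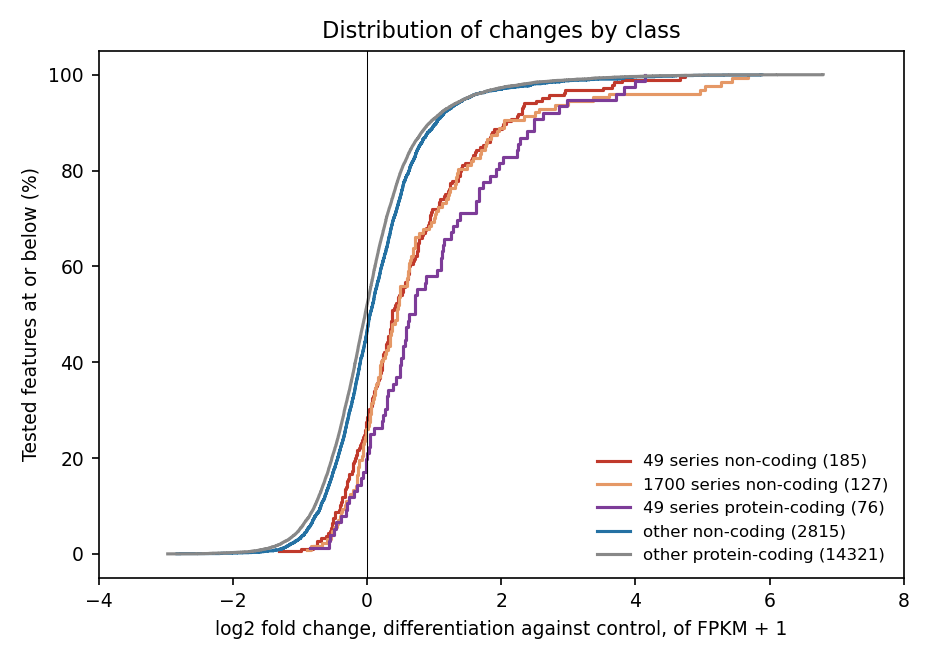
Cumulative share of tested features (vertical, percent) at or below each log2 fold change (horizontal, log2 of FPKM + 1) for 5 classes, with the number tested in brackets. The curves of the 49 series and the 1700 series non-coding RNAs lie close together and to the right of those of other non-coding and other protein-coding features.

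The median transcript had several exons in each class of call. Rising members had a median exonic length of 1537 bases in 4 exons, falling members 1514 bases in 4.5 exons and members that did not pass 1185 bases in 3 exons. The longest reading frame from an ATG, on any annotated transcript, had a median of 75 codons in rising, 90 in falling and 63 in the other tested members. It reached 100 codons in 24 of the 93 annotated rising members, 8 of the 22 falling and 16 of the 69 that did not pass, and 4933440M02Rik held one of 260 codons. Chromosome 10 held the most members, 34, followed by chromosomes 5 and 9 with 31 each. In this order 17, 19 and 17 of them were tested, of which 10, 10 and 13 rose. Of all tested members 50.8% rose.

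The 153 members below the filter had means of 0.032 to 0.499 FPKM and a median of 20 fragments over the 4 libraries, too few for a fold change of each. Just under the filter, 4930434O05Rik was at 0 and 0.125 FPKM in control and 0.727 and 1.14 FPKM in differentiation, while 4930590L20Rik was at 0.372 and 1.05 against 0.305 and 0.266 FPKM, both named after their values were seen. The groups did not overlap in 79 of the 153 that were higher and in 23 that were lower, against 32.2% and 27.9% of all untested features. The authors' deposited table, which tested all features by a method that no source used here names, called 27 of them higher and 2 lower, against 7.65% and 5.79% of untested features. Over all 338 members that table called 112 higher and 16 lower, against 22.0% and 20.3% of all features. It shared 84 of the rises and 14 of the falls called here, with 0 in opposite directions, from the same libraries. With limma-voom on all features of at least 10 recovered fragments, an alternative added after the data were seen, 141 of 330 members rose and 33 fell, against 27.6% and 25.7% of features.

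Replicates agreed closely for these RNAs. Over the 185 tested members Spearman's rho was 0.952 between the control libraries and 0.945 between the differentiation libraries, and 0.301 to 0.352 between libraries of different groups. The filter bears on these values, since 53 members passed it through differentiation only. Over the 130 members with both group means at 0.5 FPKM or more, rho was 0.915 and 0.951 within the groups and 0.556 to 0.585 between them. Over all 20504 features at that level it was 0.97 and 0.971 within and 0.833 to 0.838 between. These values are descriptions. Both features named 4930432B10Rik rose, from 1.53 and 1.74 to 3.98 and 4.23 FPKM and from 1.13 and 0.836 to 4.02 and 4.90 FPKM.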

How the data were processed

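The deposited table held FPKM for each of 4 libraries; per the submitters' processing notes, the authors used HISAT2 and GRCm38, and no source used here names the annotation, the counting tool or its strand setting. It also held the authors' log2 fold changes and their p-values, from a test that is not named. The members and the marker lists were chosen with earlier results of these data known.

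For each of 23138 features whose mean reached 0.5 FPKM, log2(FPKM + 1) was fitted with limma 3.58.1 (R 4.3.3). Group was the only term, the variance prior followed mean level, 2 residual and 2.14 prior degrees of freedom were used, and two-sided p-values were Benjamini-Hochberg adjusted. An exact permutation test of a single value could not go below p = 0.333. Fragments were recovered from FPKM and GENCODE M21 exonic length (96.2% of values under 300 fragments were whole within 0.05) and fitted with limma-voom as an alternative. Depths were 17772000 to 20650100 fragments. The fits were tested on simulated data. Other pseudocounts, filters, scalings, a replicate block, a minimum fold and the omission of each library were also tried.

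Named members were the 12 largest rises and 8 largest falls among called members with a higher group mean of at least 1 FPKM and no overlap, the 5 highest in level, the 3 highest not called, and their coding neighbours: an overlapping gene, else one starting within 5 kb on the other strand, else the nearest within 50 kb. Summaries used pandas 2.3.3, scipy 1.17.1 and numpy 2.4.6 under Python 3.11.15, and plots matplotlib 3.10.9.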

Additional observations from a re-analysis of the deposited data

How the results depend on the processing

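Over the full set of members, the number called higher stayed within 1.5 times of 94 (76 to 141) under every alternative run other than a minimum fold change of 1.5 (limma treat), which left 51 higher and 0 lower (9.91% and 5.08% of all tested features), 15 pairs of a member and its neighbour in the same direction, and 35 higher among the 1700 series and 249 among other non-coding RNAs. At an unadjusted p under 0.05 the same test gave 2 members lower, and limma-voom without a minimum fold gave 23. The highest count of members called higher, 141, came from limma-voom at 10 or more fragments. That run tested more members than the 185 of the main fit, so these counts are not shares of the same set. Leaving out 1 library at a time gave 76 to 80 members higher, 7 to 13 lower, medians of 0.40 to 0.45 and 46 to 49 pairs. The median log2 fold change of 0.37 became 0.57 and 0.45 with pseudocounts of 0.1 and 0.5, 0.21 without a filter, 0.25 and 0.42 with minimum means of 0.1 and 1 FPKM, 0.29 after quantile normalization, 0.30 after median centring, 0.60 with limma-voom, 0.80 with limma-voom at 10 or more fragments and 0.53 over members with no shared exonic base, of which 53 rose and 11 fell. No scaling turned its sign. The members with no shared exonic base include some that passed the filter through differentiation only, so their median may rest in part on the filter. With the replicate block 92 members rose and 18 fell, and 65 pairs went the same way; same-numbered libraries did not deviate together (correlation -0.000408), so the numbers were not taken to pair them. Of the named members, 4930412M03Rik ranged from -0.0702 to 0.0263 when 1 library was left out, with the sign changed without differentiation replicate 2 (limma adjusted p = 0.737), and was not called either way. The cause of these changes was not tested. Ratios of members with few control fragments are limited by counting.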
